A study of Mus musculus with 194 samples.

Results

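The comparison set 3 mouse cortices that carried calling cards labelled Syn1Cre_SP1_P10 against 6 cortices labelled Syn1Cre with no fusion partner named, which were 9 of the 47 deposited insertion tables. The 9 tables were chosen by their labels alone, and the animal was the replicate. A calling card is a transposon that a transposase inserts into the genome at the tetramer TTAA, so that a DNA-binding protein joined to the transposase leaves a lasting record of where it was bound, while a free transposase records where the genome was open to it. All animals compared had received adeno-associated virus at postnatal day 0 to 1, and the labels name a Syn1Cre background for both groups, in which Cre recombinase is driven by the promoter of the neuronal gene Syn1 and acts mainly in neurons. P10 in the label stands for postnatal day 10; the labels give no collection age for the Syn1Cre group, and they name neither the transposase nor the SP1 construct. The age, the protein and the sequencing pool can therefore not be told apart in this contrast, since no sequencing pool held animals of both groups. Each cortex was cut into 10 pieces whose RNA was indexed separately, and the self-reporting transcripts of the transposon were sequenced and pooled into 1 table per animal. A further 4 animals labelled Syn1Cre_SP1_P28 (postnatal day 28) and 6 labelled GFAPCre, an unfused group in which the astrocyte promoter GFAP drives Cre, are given beside the compared groups as values with no test.

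SP1 is a ubiquitous zinc finger protein that binds GC boxes, runs of G and C found near the start sites of many housekeeping and growth genes, and it helps to recruit the general transcription machinery there. It belongs to a family with the other Sp and Klf factors, whose zinc fingers read GC boxes and the related CACCC boxes. The piggyBac transposase, much used for calling cards in mammals, is known when unfused to favour open chromatin, distal enhancers included, so the question the design addresses is how the placement of insertions differs when SP1 is part of the system. Insertions, not RNA levels, were measured throughout.

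The SP1 P10 animals held 84941, 87716 and 93185 insertions on chromosomes 1 to 19, against 432664 to 1332946 in the Syn1Cre animals. Each insertion in the SP1 P10 tables was backed by a mean of 16.9 to 35.1 reads, against 2.99 to 20.7. Levels are given as IPM, the insertions of a feature per 1000000 insertions of the same animal on chromosomes 1 to 19, so that 1 insertion was worth 10.7 to 11.8 IPM in an SP1 P10 animal and 0.750 to 2.31 IPM in a Syn1Cre animal, and only large losses were detectable at single features.

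The promoters below are those of the 6 genes with the highest estimated log2 difference among the promoters named, and of the 2 other genes given with the comparison, Sin3a and Mier3. Each is the 300 bases from 250 before to 50 after 1 listed start site, from the RefSeq promoter table of build GRCm38.p6, written 5' to 3' on the gene's own strand. Capitals mark GC boxes, the letters GGGCGG or their reverse complement CCGCCC. All of them hold at least 2 GC boxes, and none but Sin3a holds a TTAA, so that in the other 7 an insertion can lie beside these bases but not within them. The other listed start of Sin3a holds 1 GC box and 3 TTAA. Within 1 kb of the Mier3 start lay 3 SP1 P10 insertions in all, too few for the filtered test.
Psme2: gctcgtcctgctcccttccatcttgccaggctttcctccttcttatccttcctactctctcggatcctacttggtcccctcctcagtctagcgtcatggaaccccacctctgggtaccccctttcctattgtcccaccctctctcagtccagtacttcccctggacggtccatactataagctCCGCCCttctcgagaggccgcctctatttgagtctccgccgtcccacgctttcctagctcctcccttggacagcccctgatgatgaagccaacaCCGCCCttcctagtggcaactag
Sp1: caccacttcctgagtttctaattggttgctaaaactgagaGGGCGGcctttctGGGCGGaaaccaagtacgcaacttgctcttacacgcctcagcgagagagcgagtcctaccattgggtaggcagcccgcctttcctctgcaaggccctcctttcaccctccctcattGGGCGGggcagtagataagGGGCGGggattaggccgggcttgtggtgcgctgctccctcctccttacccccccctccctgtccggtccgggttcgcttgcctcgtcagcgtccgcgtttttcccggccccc
Abhd17a: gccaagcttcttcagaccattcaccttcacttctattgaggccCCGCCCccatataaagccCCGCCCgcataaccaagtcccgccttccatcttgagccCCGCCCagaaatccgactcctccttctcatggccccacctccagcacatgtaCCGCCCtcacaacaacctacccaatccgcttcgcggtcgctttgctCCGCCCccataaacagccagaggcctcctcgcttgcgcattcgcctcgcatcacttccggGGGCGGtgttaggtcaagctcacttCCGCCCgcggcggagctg
Paqr3: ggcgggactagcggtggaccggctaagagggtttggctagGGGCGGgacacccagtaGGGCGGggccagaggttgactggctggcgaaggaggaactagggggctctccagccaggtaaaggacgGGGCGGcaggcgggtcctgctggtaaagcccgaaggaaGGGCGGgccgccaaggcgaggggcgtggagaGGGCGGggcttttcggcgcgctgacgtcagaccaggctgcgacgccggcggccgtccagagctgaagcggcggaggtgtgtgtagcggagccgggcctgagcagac
Limk1: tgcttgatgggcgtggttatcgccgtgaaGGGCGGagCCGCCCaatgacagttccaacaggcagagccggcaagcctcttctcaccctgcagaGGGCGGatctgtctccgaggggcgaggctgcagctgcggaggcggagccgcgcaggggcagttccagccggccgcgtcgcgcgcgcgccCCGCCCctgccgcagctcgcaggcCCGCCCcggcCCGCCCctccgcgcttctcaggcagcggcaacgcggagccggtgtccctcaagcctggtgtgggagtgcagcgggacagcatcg
Pgpep1: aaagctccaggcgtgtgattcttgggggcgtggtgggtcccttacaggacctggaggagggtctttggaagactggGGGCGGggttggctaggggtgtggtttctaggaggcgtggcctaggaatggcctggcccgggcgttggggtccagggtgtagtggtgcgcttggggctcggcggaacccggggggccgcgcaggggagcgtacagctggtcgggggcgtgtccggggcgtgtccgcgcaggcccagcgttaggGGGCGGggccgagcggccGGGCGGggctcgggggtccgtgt
Sin3a: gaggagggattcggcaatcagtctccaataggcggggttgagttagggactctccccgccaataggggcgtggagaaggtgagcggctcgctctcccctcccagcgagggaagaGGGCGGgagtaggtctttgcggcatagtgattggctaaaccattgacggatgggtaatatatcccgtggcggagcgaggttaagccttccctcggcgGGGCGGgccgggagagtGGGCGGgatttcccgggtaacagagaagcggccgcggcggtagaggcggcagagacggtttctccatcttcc
Mier3: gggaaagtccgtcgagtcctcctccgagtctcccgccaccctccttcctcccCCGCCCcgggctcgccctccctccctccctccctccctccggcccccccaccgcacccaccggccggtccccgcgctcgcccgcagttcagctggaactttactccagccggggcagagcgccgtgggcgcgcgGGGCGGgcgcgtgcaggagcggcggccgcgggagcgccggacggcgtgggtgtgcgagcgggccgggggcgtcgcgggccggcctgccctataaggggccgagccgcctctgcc

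The windows are, in the same order, chr14:55591052-55591351 (- strand, 2 boxes), chr15:102406066-102406365 (+ strand, 4 boxes), chr10:80590292-80590591 (- strand, 7 boxes), chr5:97111547-97111846 (- strand, 5 boxes), chr5:134688541-134688840 (- strand, 6 boxes), chr8:70659689-70659988 (- strand, 3 boxes), chr9:57076126-57076425 (+ strand, 3 boxes), chr13:111685928-111686227 (+ strand, 2 boxes). Of all 20085 such windows, 47.0% hold at least 1 GC box and 27.0% at least 2.

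The share of insertions near gene starts was several times larger with SP1. Within 1 kb of a protein-coding start site (for genes that the promoter table does not list, of the gene's start or end) lay 22%, 24.3% and 24.2% of the insertions of SP1 P10 animals 1 to 3. In the 6 Syn1Cre animals the lowest, median and highest shares were 6.12%, 6.75% and 7.82%. The groups lay far apart, with means of 23.5% ± 1.30 (SD, n = 3) and 6.82% ± 0.584 (SD, n = 6), a difference of 16.7 percentage points and a ratio of 3.44. The exact two-sided permutation test gave p = 0.0119, the smallest value that the 84 splits of 9 animals allow. These stretches make up 2.09% of the length of chromosomes 1 to 19. Against Syn1Cre animals 1 to 3 alone, which by the labels shared no pooled library with animals 4 to 6, the difference was 16.6 points, and against animals 4 to 6 alone it was 16.7 points (with 3 animals on each side the smallest exact two-sided p is 0.1).

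Depth differed between the groups, and the Syn1Cre animal with the fewest insertions had the highest share near starts (7.82%), while the one with the most had the lowest (6.12%). The part of depth in the difference was not tested. In the SP1 P28 group the animal with the most insertions, 564530, had the lowest share, 16.5%. The P28 group averaged 20.4% ± 2.98 (SD, n = 4), and the GFAPCre group 6.74% ± 0.447 (SD, n = 6).

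The zone of larger shares reached beyond the first kilobase, and farther out the shares were smaller. The classes are parts of a whole, so a larger share near starts makes the others smaller. IPM is relative in the same way. Gain and loss, here and below, mean a larger or smaller part of an animal's insertions. Whether distal insertions fell in number apart from this was not tested. Between 1 and 5 kb from a start the mean share was 15.0% ± 0.0751 with SP1 and 11.4% ± 0.477 in Syn1Cre animals. From 5 to 50 kb it was 30.7% ± 0.509 against 35.2% ± 0.821, and from 50 to 200 kb 20.4% ± 0.466 against 28.6% ± 0.515. Beyond 200 kb from any start, 10.4% ± 0.273 of SP1 P10 insertions lay, against 18% ± 1.04. In every one of these classes the 3 and the 6 animals did not overlap, and each exact permutation p was 0.0119, also after Benjamini-Hochberg adjustment over the classes. Because the classes sum to the whole, these p-values are not independent. The 3' ends of genes were different: within 1 kb of a gene's far end and of no start lay 1.81% ± 0.0216 with SP1 and 1.78% ± 0.0971 without (exact p = 0.643).

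**Figure D1:**
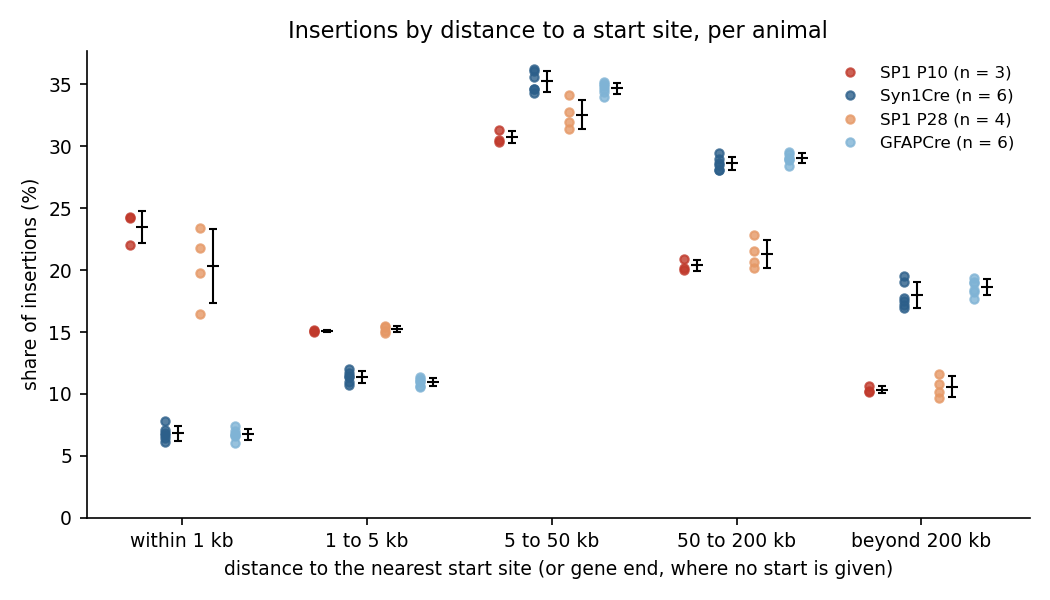
Share of each animal's insertions (percent, chromosomes 1 to 19) by distance to the nearest protein-coding start site or, where no start is listed, gene end; each point is 1 animal, and the black marks are group means with their SD. The 3 SP1 P10 animals lie above all 6 Syn1Cre animals within 1 kb (22% to 24.3% against 6.12% to 7.82%) and below them in every class from 5 kb outward.

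Aligned on 20085 start sites of 16457 genes, the gain was greatest just upstream of the start. Within 0.5 kb upstream the SP1 P10 animals summed to 87232 IPM ± 5398 (SD, n = 3) and the Syn1Cre animals to 18504 IPM ± 2081 (SD, n = 6), a ratio of 4.71. From 1 to 0.5 kb upstream the ratio was 3.13, within 0.5 kb downstream 3.71, and from 0.5 to 1 kb downstream 2.67. It had fallen to 1.69 at 1 to 2 kb downstream, and at 4 to 5 kb downstream the SP1 P10 animals were lower, at 7832 IPM against 8819 IPM, a ratio of 0.888. At 5 to 4 kb upstream a ratio of 1.24 was still seen. Each of these zones had an exact permutation p of 0.0119, also after Benjamini-Hochberg adjustment. In both groups the first 0.5 kb downstream held fewer insertions than the 0.5 kb upstream. With SP1 the highest 100-base bin lay 400 to 300 bases upstream, with 20607 IPM ± 1141 against 4548 IPM ± 498.

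**Figure D2:**
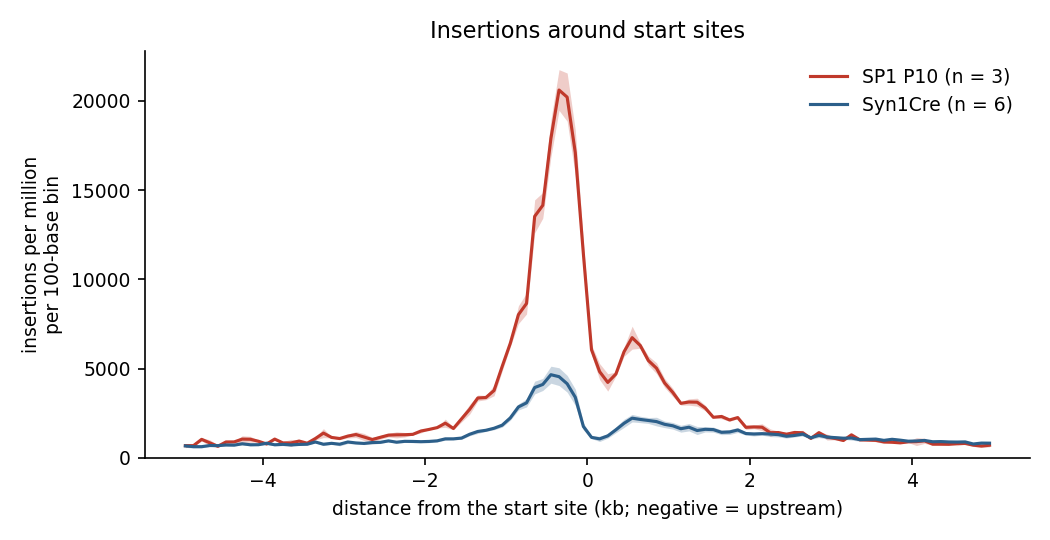
IPM summed over 20085 start sites in 100-base bins (vertical axis) against distance from the start in kb, negative upstream (horizontal axis), for the SP1 P10 (n = 3) and Syn1Cre (n = 6) animals; lines are group means and bands 1 SD on each side. The SP1 P10 line peaks 400 to 300 bases upstream at 20607 IPM, where the Syn1Cre line is at 4548 IPM, and the 2 lines meet several kilobases downstream.

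At single promoters, edgeR's quasi-likelihood test called 2147 of the 3197 tested higher with SP1 and 53 lower at an adjusted p under 0.05, which is 67.2% and 1.66% of those tested. In 1999 of them (62.5% of those tested) the 3 SP1 P10 animals all lay above the 6 Syn1Cre animals, and in 52 (1.63%) all lay below them. A promoter could reach the level the filter asks for through about 2 insertions in each SP1 P10 animal, given enough insertions in total over all animals. The share among those tested therefore leans upward. Over all 20665 protein-coding genes, 10.4% were called higher and 0.256% lower, and with no filter 3101 of 15643 promoters with any insertion (19.8%) were called higher. The median promoter tested was 2.10 higher on the log2 scale, but over all promoters with any insertion, with no filter, the median was 0.17, and 11295 genes had no SP1 P10 insertion at all within their window. Scaling on promoters alone by DESeq2 takes the median of the tested promoters out by construction and moves it by -2.34: then 683 were called higher and 628 lower, and each value below is relative to the scaling on 50 kb windows, so that the sign of a small positive log2 difference can turn when promoters set the scale. The number called lower was small and moved with the animals used, to 35 without Syn1Cre replicate 1 and 34 without Syn1Cre replicate 3.

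Among the promoters named, that of Psme2 had the highest estimated log2 difference, 8.69. Psme2 encodes a subunit of the proteasome activator PA28, and its window also covers the start of Rnf31 (chr14:55587440-55591101 for Psme2). This window held 94.2, 103 and 64.4 IPM in the SP1 P10 animals and none in any Syn1Cre or GFAPCre animal. Counted against a floor of 3 insertions over the whole Syn1Cre group, this is at least 158-fold higher (edgeR adjusted p = 1.6e-14). The promoter of Sp1 itself came next at 8.49, with 58.9, 91.2 and 75.1 IPM against 0 in all 6 Syn1Cre animals, at least 136-fold higher (adjusted p = 1.4e-13). Because neither promoter had a Syn1Cre insertion, their place above the genes that follow is not settled by these counts. Abhd17a, which encodes a depalmitoylase that acts on synaptic and Ras proteins, had 177, 251 and 247 IPM against 0 to 1.36 IPM, a log2 difference of 8.15 ± 0.44 (SE). All animals of each group were on their own side of the gap in these 3 genes, which the rule for naming promoters required. Paqr3, a Golgi membrane protein, had 130, 194 and 225 IPM against 0 to 1.60 IPM (log2 difference 7.85).

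Further down the ranking the genes had mixed roles. Pgpep1, a peptidase that removes pyroglutamate, and Klhl26, a Kelch protein, were both at 7.46. Cyhr1, whose window also covers Kifc2, was at 7.38. The lysosomal peptide transporter Abcb9 was at 7.12 and Plekhg2, a guanine nucleotide exchange factor, at 7.11. The NF-kappaB subunit gene Relb was at 7.05, as was Gm46294, whose window also covers Rara, the gene of a retinoic acid receptor. Papolg, a poly(A) polymerase, was at 6.98, the sphingolipid desaturase Degs1 at 6.97, the RNase P subunit gene Rpp40 at 6.97, and the coenzyme Q factor gene Coq8b at 6.90. For each of these 11 promoters no Syn1Cre animal was above 4.58 IPM and no SP1 P10 animal was below 47.1 IPM. Cyhr1, Gm46294, Relb and Coq8b have no strand in the promoter table, so either end of the gene was counted.

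The 4 genes given with the comparison were not alike. Limk1 encodes LIM kinase 1, which phosphorylates the actin-severing protein cofilin; its promoter held 177, 239 and 193 IPM against 0 to 2.25 IPM (log2 difference 7.68 ± 0.45 SE, adjusted p = 2.7e-20). The insertions gathered in the 2 kb from 134688001 to 134690000 of chromosome 5, centred 410 bases from the upstream start, where the SP1 P10 animals held 318, 399 and 440 IPM at 26 positions and the Syn1Cre animals 0 to 6.09 IPM. That is the start with 6 GC boxes printed above; the other listed start of Limk1 holds 0. Sin3a, the scaffold of the SIN3 histone deacetylase co-repressor, had 247, 274 and 268 IPM against 3.66 to 11.6 IPM (log2 difference 5.43 ± 0.32 SE, adjusted p = 3.0e-20). Its densest 2 kb, chosen after the values were seen like those of the other genes, ran from 57074001 to 57076000 of chromosome 9, centred between its 2 listed starts and 1376 bases from the nearer, with 389, 445 and 451 IPM against 4.80 to 12.6 IPM.

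Sp1 had insertions of the unfused group nearby, though none in its promoter window. From 102404001 to 102406000 of chromosome 15, a stretch centred 1316 bases upstream of its start, the SP1 P10 animals held 353, 456 and 451 IPM and the Syn1Cre animals 36.8 to 57.8 IPM, while the window of 1 kb on each side was empty in all 6 of them. Mier3, a subunit of a histone deacetylase complex, was the exception at the promoter: its window held 3 SP1 P10 insertions in all (23.5, 0 and 10.7 IPM), too few for the filtered test, and without a filter the log2 difference was 2.06 with an edgeR adjusted p of 0.249. The 50 kb window that Mier3 and Map3k1 share (chr13:111700001-111750000) was nevertheless among the 8 highest of its size, at 436, 433 and 537 IPM against 9.25 to 18.3 IPM (log2 difference 4.87 ± 0.22 SE, adjusted p = 6.1e-16). Most of that signal lay from 111724001 to 111726000, beginning 5405 bases beyond the annotated span of Mier3, with 318, 285 and 354 IPM at 14 positions and 0 to 4.00 IPM in the Syn1Cre animals.

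Insertions at these promoters were also present in the later SP1 group. By the labels, some sequencing pools held libraries of both P10 and P28 animals, so the P28 group was not sequenced wholly apart. The part of shared pools in these values was not tested. At P28 Limk1 ranged from 51.4 to 160 IPM, Sin3a from 97.4 to 235 IPM, Sp1 from 6.22 to 47.0 IPM and Psme2 from 37.6 to 53.0 IPM. In the unfused GFAPCre animals these 4 promoters reached at most 2.12, 7.51, 0 and 0 IPM. The difference between P10 and P28 was not tested here.

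Few promoters were lower. Neurod6, a helix-loop-helix factor of excitatory cortical neurons, had 23.5, 22.8 and 10.7 IPM with SP1 against 75.2 to 100 IPM, a log2 difference of -2.25 ± 0.51 (SE, adjusted p = 0.0001). These 3 values rest on 5 insertions in all. Dlgap1, which encodes a scaffold of the postsynaptic density, had 1 SP1 P10 insertion (11.8, 0 and 0 IPM) against 28.8 to 42.4 IPM (log2 difference -3.25). Omg, the gene of oligodendrocyte myelin glycoprotein, had 11.8, 22.8 and 21.5 IPM against 52.4 to 104 IPM (-1.96), and in the P28 animals it lay between 62.0 and 106 IPM, which overlaps the Syn1Cre group. Arhgap15 (-2.60), Gadd45gip1 (-2.29), Zfp239 (-2.06), Map3k19 (-1.93) and Msra (-1.82) complete the 8 lowest among promoters past the threshold whose groups did not overlap and whose level was at least the median of those tested, each on 2 or 3 SP1 P10 insertions. Omg, Gadd45gip1, Map3k19 and Msra have no strand in the promoter table, so either end of the gene was counted. The same holds for 27 of the 53 promoters called lower, while 2503 of the 3197 tested have listed start sites.

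Promoters with more GC boxes held more insertions with SP1. Promoters were grouped by the most copies of GGGCGG, on either strand, in the 300 bases at any of the gene's starts. With none, 8187 genes held 4.90 IPM per promoter in the SP1 P10 animals and 2.33 IPM in the Syn1Cre animals, a ratio of 2.10. With 1 copy (3336 genes) the levels were 13 and 4.22 IPM, and with 2 copies (2117 genes) 17.6 and 4.15 IPM. With 3 or 4 copies (2069 genes) they were 24.2 and 4.34 IPM, and with 5 or more (748 genes) 39.4 IPM ± 2.94 (SD, n = 3) and 4.45 IPM ± 0.432 (SD, n = 6), a ratio of 8.85. In the Syn1Cre animals the class means from 1 copy upward thus lay between 4.15 and 4.45 IPM, while with SP1 each class was above the one before. At P28 the class means went from 4.74 to 29.4 IPM, and in the GFAPCre animals they were 4.15, 4.12, 4.29 and 4.34 IPM from 1 copy upward. These are descriptions over genes, which are not replicates, and are given with no test.

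GC content rose along the same classes, from a mean of 49.0% with no box to 73.3% with 5 or more. Within the promoters of 60% to 70% GC, a band chosen after the values were seen, the ratio went from 2.53 with none (928 genes) through 3.4, 4.72 and 6.10 to 12.4 with 5 or more (218 genes), and mean GC from 63.6% to 66.4%. The part of GC content in the differences between classes was not tested. A higher share of genes was also called as boxes increased, 3.46%, 11.5%, 17%, 22.1% and 32.4% of the genes in each class, against 10.4% of all protein-coding genes.

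**Figure D3:**
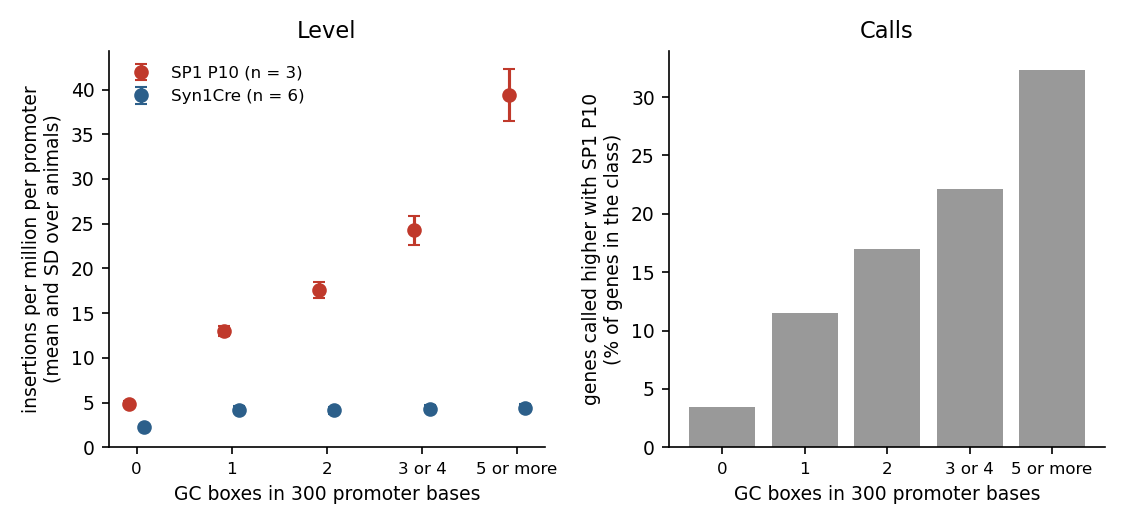
By the most GC boxes in the 300 bases at any start of the gene (horizontal axes), the left panel gives IPM per promoter as the mean and SD over the SP1 P10 (n = 3) and Syn1Cre (n = 6) animals, and the right panel the percent of the genes of each class that were called higher. SP1 P10 rises from 4.90 to 39.4 IPM, and Syn1Cre stays between 4.15 and 4.45 IPM from 1 copy upward.

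In percentage points, the other words searched differed less than the GC box between the genes called higher and all. The start sites of genes called higher held GGGCGG in 72.1% of 300-base windows, against 47.0% of all 20085 windows of the table. In genes called lower it was in 16.9% of only 59 windows of 26 genes. The longer GGGGCGGGG, which contains GGGCGG, was in 28.4% against 15.7%. CACCC, the box of many Klf factors, was in 65.8% against 59.9%, and CCAAT, read by NF-Y, in 39.8% against 38.1%. CCGGAAG, an Ets-type word, was in 13.1% against 11.9%. The TATA word TATAAA was less frequent, at 5.60% against 12.7%. TTAA, where the transposon inserts, was in 46.5% of windows of genes called higher and 47.8% of all. In windows of genes tested and not called, the shares were 47.4% for GGGCGG, 11.8% for GGGGCGGGG, 57.4% for CACCC and 33.2% for CCAAT. There they were 17.2% for CCGGAAG, 8.21% for TATAAA and 54.8% for TTAA. These last words were thus less frequent in genes called higher than in genes tested and not called. Every word was searched on both strands, and a match is a string of letters, not a bound site.

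Gene classes were compared by the summed level of all members, called or not, beside the sum over all protein-coding genes, whose ratio was 3.48. The 37 subunits of SIN3-HDAC and related co-repressors summed to 871 to 1062 IPM with SP1 against 111 to 148 IPM, a ratio of 7.62, and 7 of the 37 (18.9%) were called higher and none lower. Sap130, a SIN3 subunit, was at 6.17 on the log2 scale, and Mbd3, a subunit of the NuRD co-repressor, at 5.21. Ing2 (4.03), Gatad2b (3.01), Rcor3 (2.78) and Brms1l (2.00) were also called, while Chd3 (0.89, adjusted p = 0.21) and Ncor1 (0.82, adjusted p = 0.16) were not. The list holds Sin3a and Mier3, which were given with the comparison. Sin3a alone gave 263 of the mean sum of 960 IPM with SP1, and 5.91 of the 126 IPM in Syn1Cre animals. All lists were drawn up with earlier results of these data known.

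In SP1's own family of 25 Sp and Klf genes, 7 (28%) were called higher against 10.4% of all genes, none lower, and the list's sum was 6.00 times that of the Syn1Cre animals. Sp1, given with the comparison, is in this sum with a mean of 75.1 IPM against 0. After Sp1, the brain-expressed Sp4 was highest, with 141, 194 and 96.6 IPM against 0 to 13.9 IPM (log2 difference 5.51). Klf11 was at 3.79, Sp2 at 3.19, Klf16 at 2.37, Klf7 at 2.17 and Klf5 at 1.94. Klf9, tested and not called, was at 0.99 (adjusted p = 0.12), and 8 of the 25 had no SP1 P10 insertion. The sign of Klf5 turned, to -0.18, under a scaling on the promoters themselves.

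The regulators of the actin cytoskeleton listed with Limk1 summed to 706 to 1003 IPM against 107 to 137 IPM, a ratio of 7.10, with 9 of 32 (28.1%) called higher. Limk1, given with the comparison, is in this sum with a mean of 203 IPM against 0.578 IPM. Pak4, a kinase upstream of LIM kinase, was at 5.19, while Wasl (0.75) and Arpc2 (0.20) were tested and not called. Vesicle coat and Golgi traffic genes had 17 of 70 (24.3%) called higher and a ratio of 4.40. Ap3d1, a subunit of the AP-3 adaptor, was at 6.38, and Trappc9 of the TRAPP tether at 6.24. Sec24a (0.71) and Arf4 (-0.85) were not called.

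Housekeeping machines had summed ratios from 1.97 to 3.73, and all but the proteasome lay below the 3.48 of all genes. Among proteasome genes 8 of 47 (17%) were called higher, led by Psme2 and Psmd12 (4.96), with a summed ratio of 3.73. Psme2 alone gave 87.1 of the mean sum of 886 IPM with SP1, and 0 of the 237 IPM in Syn1Cre animals. Spliceosome genes had a ratio of 3.37 with 6 of 47 called higher, led by Prpf40b (4.67), and 1 lower, the imprinted gene Snrpn (-2.33). Mediator and TFIID had a ratio of 2.98 with 6 of 45 called higher, led by Med16 (4.97). DNA replication and repair genes had a ratio of 2.85 with 6 of 51 called higher, led by Parp1 (3.72), and 1 lower, Xpc, which had no SP1 P10 insertion against 9.25 to 27.1 IPM. For nuclear oxidative phosphorylation genes the ratio was 2.52, with 9 of 79 higher, led by Ndufv3 (5.67), and 1 lower, Ndufa12 (-2.75). Cytoplasmic ribosomal protein genes had 10 of 82 (12.2%) called higher, led by Rpl41 (4.30), 1 lower, Rpl34 (-2.67), and a ratio of 2.63. Chaperones had a ratio of 2.51 with 7 of 62 called higher, led by Hsp90ab1 (6.35), aminoacyl-tRNA synthetases a ratio of 2.40 with 4 of 38, Cars (4.58), Lars2 (4.05), Dars (3.04) and Sars (1.81), and mitochondrial ribosomal proteins a ratio of 1.97 with 8 of 77, led by Mrps24 (3.27). The 388 Zfp zinc finger genes had a ratio of 2.63 with 39 (10.1%) called higher, led by Zfp78 (6.60), and 1 lower, Zfp239. Against 10.4% of all genes called higher, the shares of these lists ran from 10.1% to 17%.

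Lists that mark cell types had summed promoter ratios below the 3.48 of all genes. Neuron markers had a ratio of 1.68, with 3 of 26 called higher and 1 lower; Tubb3 (4.50) and Map2 (3.8), which encode cytoskeletal proteins, and Elavl4 (1.30), an RNA-binding protein, were higher, and Neurod6 was lower. Synapse genes had 9 of 33 (27.3%) called higher and a ratio of 3.36, close to that of all genes; Shank1 was at 5.75 and Stx1a at 4.39, and Dlg2 (0.18) and Shank2 (-0.10) were not called. Astrocyte markers summed to 424 to 440 IPM with SP1 and 145 to 557 IPM in Syn1Cre animals, ranges that overlap, with 3 of 20 called higher, Id3 (4.14), Atp1b2 (2.00, but -0.11 when scaled on the promoters themselves) and Gja1 (1.68). Oligodendrocyte markers were low in both groups and overlapped, at 21.5 to 57 IPM against 12.2 to 69.3 IPM, and none of 15 was called. Microglia and endothelial markers summed to 68.4 to 96.6 IPM against 23.1 to 51.2 IPM with 1 of 20 called higher. Whether cell types in the 2 groups of cortices contributed differently was not tested. Forebrain transcription factors had a ratio of 1.83 with 7 of 49 called higher and 1 lower, Neurod6. Nfib was at 2.16 and Mef2c at 1.70, but Mef2c was at -0.39 when scaled on the promoters themselves and at -0.086 with DESeq2. The neuronal long genes had a ratio of 1.56 with 3 of 31 called higher, among them Negr1 (3.81) and Cadm2 (3.73). The 1456 olfactory and vomeronasal receptor genes, which serve smell, were lower as a whole. They summed to 45.6 to 82.4 IPM against 146 to 185 IPM, a ratio of 0.388. Of these genes 1442 had no SP1 P10 insertion, but 1051 had none in any of the 9 animals. Among all 20665 genes, 11295 had no SP1 P10 insertion and 5022 had none in any of the 9 animals. The one receptor gene tested, Olfr145, was called lower (-2.48).

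**Figure D4:**
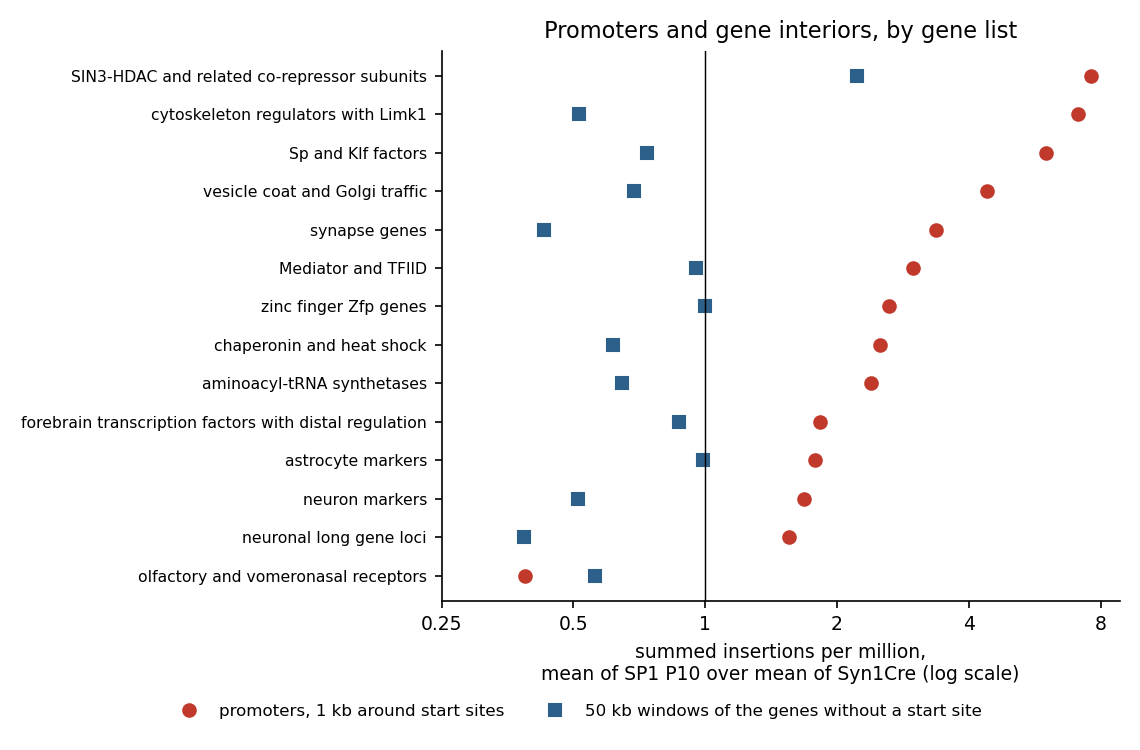
Summed insertions of SP1 P10 over Syn1Cre animals (ratio of group means, log axis) for each gene list with at least 10 interior windows, at promoters (circles) and in the 50 kb windows of the same genes that hold no start site (squares). The co-repressor, cytoskeleton and Sp and Klf lists have the highest promoter ratios (7.62, 7.10 and 6.00). Each of these lists includes a gene given with the comparison. The neuronal long gene loci have a promoter ratio of 1.56 beside an interior ratio of 0.385.

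Windows tiling the genome showed where the gain sat and what was lost. Of 21432 windows of 10 kb, 3243 (15.1%) were called higher and 2542 (11.9%) lower by edgeR, and of 23486 windows of 50 kb, 2362 (10.1%) higher and 3338 (14.2%) lower. With the further demand that the 3 and the 6 animals not overlap, 3032 (14.1%) and 2514 (11.7%) of the 10 kb windows and 2143 (9.12%) and 3264 (13.9%) of the 50 kb windows were left. A start site was present in 85.8% of the 50 kb windows called higher and in 41.6% of those tested, whereas 80.6% of the windows called lower held none. At 10 kb, 69.9% of the higher windows held a start against 26.5% of those tested, and 91.6% of the lower windows held none. The numbers of lower windows rest on all 3 SP1 P10 animals: without animal 1, 2 or 3, 887, 843 or 768 of 10 kb and 1784, 1634 or 1687 of 50 kb were called. Under DESeq2's scaling 1270 of the 50 kb windows were lower and 2804 higher, so that 68.8% of the called ones were higher, against 41.4% under the scaling used here. At 10 kb the share of higher among those called was 56.1%, or 38.8% when scaled on the 10 kb windows themselves (2810 higher, 4434 lower).

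The share of 50 kb windows called higher increased with gene density, and the share called lower was greatest in windows with 1 gene. With no protein-coding gene 187 of 5097 tested (3.67%) were higher and 576 (11.3%) lower, and with 1 gene 867 (6.69%) were higher and 2465 (19%) lower of 12968. With 3 or 4 genes 532 of 1618 (32.9%) were higher and 55 (3.4%) lower, and with 5 or more 161 of 303 (53.1%) were higher and 4 (1.32%) lower. In shares per animal, which need no filter, windows with 5 or more genes took 3.43% of SP1 P10 insertions and 1.11% of Syn1Cre insertions, and windows with no protein-coding gene 18.5% ± 0.428 (SD, n = 3) and 22.9% ± 0.749 (SD, n = 6), with an exact permutation p of 0.0119.

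**Figure D5:**
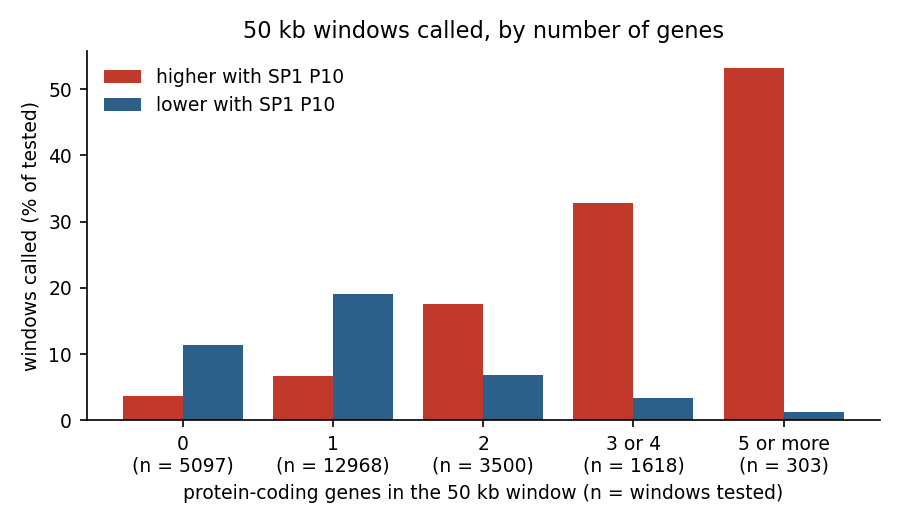
Percent of tested 50 kb windows called higher or lower with SP1 P10 (vertical axis) by the number of protein-coding genes in the window (horizontal axis). The share called higher goes from 3.67% with no gene to 53.1% with 5 or more, and the share called lower is greatest, 19%, in windows with 1 gene.

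The highest windows were compact. The 10 kb at the start end of Relb (chr7:19620001-19630000) held 94.2, 148 and 107 IPM and no Syn1Cre insertion, at least 212-fold higher. Prx, the gene of periaxin, a protein best known from myelinating Schwann cells, had the largest level of the 8 highest 10 kb windows, at 424, 616 and 740 IPM against 0 to 6.93 IPM (chr7:27500001-27510000, log2 difference 7.10). The windows of Paqr3 (7.33), Cyhr1 (6.39) and Abhd17a (6.38) repeat promoters named above. A pair of these windows held no protein-coding gene: one on chromosome 8 lay 37429 bases from Zfp958 (82.4, 103 and 75.1 IPM against 0 to 0.750 IPM, 7.74), and one on chromosome 2 lay 10727 bases from Pck1, the gene of a gluconeogenic enzyme (106, 137 and 236 IPM against 0 to 2.29 IPM, 6.51).

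At 50 kb the same regions near Zfp958 (6.51) and Pck1 (4.77) were among the 8 highest, as were the windows of Limk1 (5.05), of Mier3 and Map3k1 (4.87) and of Ptpn9 and Sin3a (4.70). The Sin3a window held 565, 650 and 644 IPM against 11 to 34.7 IPM. Crlf2, a cytokine receptor gene, was at 5.70, Sptbn4 and Blvrb at 4.94, and the gene-dense window of Atg4d, Kri1, Cdkn2d and Ap1m2 at 4.71. No Syn1Cre animal reached the lowest SP1 P10 animal in any of the 8, which the rule for naming windows required.

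The lowest windows had no SP1 P10 insertion in any animal, so their folds are lower bounds against 3 insertions over the group. The 50 kb inside Negr1 (chr3:157250001-157300000), a neuronal adhesion protein, held 55.5 to 88.2 IPM in the Syn1Cre animals and was at least 6.61-fold lower with SP1. A window 65357 bases from Hes1, a target of Notch, held 53.2 to 89.3 IPM and was at least 5.95-fold lower. Windows in Kcnk1, a potassium channel gene (at least 5.39-fold), Lingo2 (5.25), Dpp10 (4.81), Ralyl (4.60), Iqschfp and Schip1 (4.25) and Macrod2 (4.23) followed. Kcnk1 was the one of the 8 where the P28 animals, at 53.1 to 106 IPM, overlapped the Syn1Cre animals (48 to 92.5 IPM); in the others the P28 animals held at most 37.2 IPM.

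At 10 kb the lowest windows included those in Phactr1, a regulator of actin and protein phosphatase 1 (41.6 to 84.7 IPM in Syn1Cre animals, at least 5.62-fold lower), Ptprd (4.82), Flrt2 (4.37), Arpp21 (4.36) and Ncam2 (4.26), and others outside genes 157199 bases from Topaz1 (5.16) and 112109 bases from Dpyd (4.82). Arpp21 is a phosphoprotein enriched in forebrain neurons.

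Distal windows with no protein-coding gene were led by the one near Hes1. The window 211683 bases from Dthd1 (chr5:63100001-63150000) and the one 175342 bases from Foxp1, a forkhead factor of cortical neurons, had no SP1 P10 insertion and were at least 3.93-fold and 3.47-fold lower. A window 265714 bases from the potassium channel gene Kcnh7 was at least 3.34-fold lower. A window 9988 bases from Slitrk1, a synaptic adhesion gene, held 0, 0 and 10.7 IPM against 63.4 to 80.3 IPM (log2 difference -4.24). The most heavily used of the 8 in the unfused animals lay 95716 bases from Plcl1 (chr1:55850001-55900000). It held 445 to 703 IPM in Syn1Cre animals and 23.5, 34.2 and 53.7 IPM with SP1, a log2 difference of -4.01 ± 0.38 (SE, adjusted p = 1.4e-09), and 362 to 631 IPM in GFAPCre animals. Windows nearest to Celf2 (-3.74) and Snx7 (-3.64) complete the 8.

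Loss ran through the interiors of long genes, the listed neuronal ones among them. Over 50 kb windows with no start site, a class looked at after the values were seen, 2689 of 13712 tested (19.6%) were called lower. For windows inside a single gene this share was 11.2% where the gene spanned under 100 kb, 16.4% at 100 to 300 kb, 30.2% at 300 kb to 1 Mb, and 45.4% over 1 Mb (535 of 1179, with 1 called higher). Summed over all such windows without a filter, the ratio of SP1 P10 to Syn1Cre animals was 0.698. Over the 797 windows inside the listed neuronal long genes it was 0.385, with 15163 to 16600 IPM against 37595 to 46315 IPM, and 417 of the 743 tested (56.1%) were lower. The interiors of synapse genes had a ratio of 0.428 and those of neuron markers 0.512. The neuronal lists were not set against other genes of like length, so a part of neuronal role beyond length was not tested.

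The summed loss differed between classes. The windows inside forebrain transcription factor loci had a ratio of 0.870, with 28 of 135 (20.7%) lower and 6 higher, against 19.6% lower among all such windows. Their sums overlapped, at 13919 to 16599 IPM with SP1 and 15400 to 24208 IPM (median 15686 IPM) in Syn1Cre animals. Those of Zfp genes had a ratio of 0.999. Astrocyte marker loci had a ratio of 0.990 with none of 11 lower, and the Syn1Cre animals ranged there from 553 to 1586 IPM. Co-repressor loci had a ratio of 2.22 over 20 windows, which rested on the window of Mier3 described above. Without it, a comparison added after the values were seen, the other 19 windows had a ratio of 0.588, at 158 IPM ± 37.9 (SD, n = 3) against 268 IPM ± 19.6 (SD, n = 6).

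Ptprd, a receptor phosphatase of synapses, had the most windows lost, 35 of 45, with 673 to 934 IPM against 2768 to 3438 IPM over its interior. Its lower windows included an unbroken run of 28, 1400 kb long (chr4:76850001-78250000), where SP1 P10 animals held 319 to 483 IPM and Syn1Cre animals 2069 to 2491 IPM. In Dlg2, a postsynaptic scaffold gene, 23 of 36 were lower, and in Robo2, an axon guidance receptor gene, 23 of 29. Dpp10, which encodes a partner of potassium channels, had the lowest ratio of the 12 genes summed, 0.146, with 153 to 172 IPM against 937 to 1227 IPM. Other runs of 500 kb or more lay in Dlg2, Robo2, Negr1, Syt1, Ntm, Grin2b and Lrp1b. The promoters of Ptprd (0.25, adjusted p = 0.65), Dlg2 (0.18) and Robo2 (-0.03) were tested and not called.

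Cadm2 and Negr1, both adhesion genes, combined a gain at the start with a loss inside. The promoter of Cadm2 was 3.73 higher on the log2 scale (35.3, 45.6 and 21.5 IPM against 0 to 5.25 IPM), while 16 of its 19 interior windows were lower, with 869 to 1060 IPM against 1738 to 3021 IPM. The promoter of Negr1 was 3.81 higher (58.9, 114 and 75.1 IPM against 2.71 to 9.00 IPM), and 14 of its 15 interior windows were lower, with 279 to 353 IPM against 1095 to 1443 IPM. In the P28 animals the interior of Negr1 held 442 to 634 IPM and in the GFAPCre animals 992 to 1431 IPM.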

How the data were processed

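Each deposited table lists insertions of 1 cortex, 1 line per insertion with its position on build mm10 and its read count, so that the deposited unit is a count; the submitters' processing notes name Novoalign and Bowtie2, with versions not given in the sources used here. The lines were counted per animal within 1 kb of the start sites of 16457 protein-coding genes in the RefSeq promoter table (GRCm38.p6), or of either end of the other 4208 genes, and in 10 kb and 50 kb windows of chromosomes 1 to 19. Counts were tested with edgeR 4.0.16 (quasi-likelihood, low-count filter by group, Benjamini-Hochberg over all features tested, threshold 0.05), with TMM factors taken from the 50 kb windows, and checked on simulated counts. Shares were compared by exact two-sided permutation of the 9 animals. Nothing in the labels says more of the replicates than that they are separate cortices, and p-values measure the spread between them. Reads without molecular identifiers are not independent molecules; floors of 3 insertions over a group cover counting error only.

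The comparison, its genes and the gene lists were chosen with earlier results of these data known. Named promoters were the 16 highest and 8 lowest past the threshold with no overlap between groups and at least the median level; named windows the 8 highest and 8 lowest by the same rule, 200 kb or more apart, and the 8 lowest with no protein-coding gene; from each list the 2 highest and 2 lowest tested were named. Elavl4, Gja1, Dars, Sars and the genes of the interior windows were named after their values were seen. Alternatives were library size alone, DESeq2 1.42.0, TMM factors of the features themselves, other filters and flanks, distinct positions, lines with 2 or more reads, thinning to 84941 insertions, each animal left out, Syn1Cre animals 1 to 3 or 4 to 6 alone, and the replicate number as a block. The other 28 tables were not used here, and a few genes that the rules would name are not reported here.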

Additional observations from a re-analysis of the deposited data

Results flagged for a closer look

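Of 59 groups of 4 to 6 animals looked at for a value that stands apart from the rest, 4 held one, and chance gives about 1 in 20. At the Sin3a promoter, Syn1Cre replicate 5 had 11.6 IPM, the highest of its group, still far below the lowest SP1 P10 animal at 247 IPM. In the 50 kb window of Limk1, Syn1Cre replicate 2 had 21.9 IPM, against at least 447 IPM with SP1. In the window of Kcnk1, Syn1Cre replicate 5 had 92.5 IPM, and in that of Macrod2 the same animal had 39.3 IPM, the lowest of its group; no SP1 P10 insertion fell in either window.

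Chromosome X was left out of the main comparison and showed the same difference. Within 1 kb of a start or end lay 29.0% ± 0.863 (SD, n = 3) of the chromosome X insertions of the SP1 P10 animals and 7.86% ± 0.724 (SD, n = 6) of those of the Syn1Cre animals.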

How the results depend on the processing

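The differences in shares kept their direction under every alternative run; leaving out 1 animal at a time, the share within 1 kb differed by 16.3 to 17.4 points, that at 1 to 5 kb by 3.56 to 3.82, and those at 5 to 50 kb, 50 to 200 kb, beyond 200 kb and in windows with no gene by -4.77 to -4.29, -8.52 to -8.08, -7.83 to -7.31 and -4.72 to -4.30. Without 1 animal, 2039 to 2201 promoters were higher and 34 to 51 lower, 2430 to 3604 of 10 kb windows were higher and 768 to 2926 lower, and 1690 to 2662 of 50 kb windows were higher and 1634 to 3594 lower, with 162 to 173 list members higher against 168 in all animals. Scaled on the features themselves, 495 promoters were higher and 912 lower, 4434 of 10 kb windows were lower, and 36 list members were higher; Atp1b2 turned to -0.11, Klf5 to -0.18 and Mef2c to -0.39. With DESeq2, 683 promoters were higher and 628 lower, 1270 of 50 kb windows were lower, 45 list members were higher, and Mef2c was at -0.086. Thinned to the shallowest animal, 106 promoters were higher and 5 lower, 267 and 128 of 10 kb windows, 446 and 553 of 50 kb windows, and 8 list members were higher, from fewer features tested. With Syn1Cre animals 4 to 6 alone, 1140 promoters were higher and 9 lower, 2001 and 588 of 10 kb windows, 1844 of 50 kb windows were lower, and 81 list members were higher; with animals 1 to 3 alone, 25 promoters and 1252 of 10 kb windows were lower. With 500 bp on each side 1302 promoters were higher, 19 lower and 99 list members higher, and with 2 kb 133 were lower. With distinct positions 2 promoters and 1029 of 10 kb windows were lower, with 2 or more reads 1357 of 10 kb windows were lower and 108 list members higher, with no filter 641 of 10 kb windows were lower, and with at least 30 insertions 1474. The cause of these moves was not tested.

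Animals of the 2 groups share replicate numbers 1 to 3, and their deviations over 50 kb windows did not correlate (r from -0.0108 to 0.00748). With few SP1 P10 insertions per window this check could miss a pairing, so it does not settle whether the numbers pair the animals. With the replicate block 2151 promoters were higher and 64 lower, 3230 and 1754 of 10 kb windows, 2287 and 2658 of 50 kb windows, 168 list members were higher, and the share within 1 kb differed by 16.6 points. The low number of SP1 P10 insertions limits the losses that single promoters and 10 kb windows can show.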
